A study of Mus musculus with 81 samples.

Results

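The RNA of peritoneal macrophages from WT mice and from mice with a conditional knockout of the genes of the histone variant H3.3 was measured in 6 of the 81 libraries of the study. The 6 libraries were chosen by their title as peritoneal macrophages, 3 of the genotype WT and 3 of the genotype H3.3cKO (cKO). Both groups carried floxed alleles of both H3.3 genes, H3f3a fl/fl and H3f3b fl/fl, and only the cKO mice also carried LysM cre/cre. The cre is driven by the lysozyme gene Lyz2 and acts in the myeloid lineage. Homozygous cre alters both copies of Lyz2, and no peritoneal library with cre but without floxed alleles was analysed here. An effect of the cre allele and an effect of the H3.3 gene deletions therefore cannot be told apart. By the methods the mice were 8 to 10 weeks old, male and female, on a C57BL/6 background, and the cells were taken with a commercial isolation kit. The labels call the replicates biological and do not say how many animals went into each. The wider study compared the genotypes in macrophages grown from bone marrow (BMDMs).

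H3.3 is the H3 variant that cells place into chromatin outside DNA replication, and H3f3a and H3f3b encode the same protein. HIRA places it at active genes and regulatory elements, and DAXX with ATRX at repeats and telomeres. The peritoneal cavity holds mostly large resident macrophages, which depend on the transcription factor GATA6 and renew themselves locally, and fewer small macrophages with high MHC class II that arise from monocytes. Interferon acts on macrophages through STAT and IRF factors, which bind the ISRE and GAS motifs of target promoters and raise antiviral proteins.

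Counts on genes ranged from 8874069 to 23381318 in the WT and from 7625225 to 22691400 in the cKO libraries. Unmapped reads made up 1.69% to 2.17%, and each strand held 49.9% to 50.1% of the counts, so the libraries do not mark strand and a gene cannot be told apart from an antisense partner. Levels are given in CPM, the counts of a gene scaled to a common library total after TMM normalization, always in the order of replicates 1, 2 and 3. WT replicate 1 stood apart from the rest, with correlations of 0.936 to 0.955 to the other libraries on the log2 CPM scale. By Xist and Y-linked genes, replicate 3 of either genotype came from females and the other 4 libraries from males. The cells matched their label: Csf1r, the receptor of the macrophage growth factor, stood at 2478, 2787 and 3246 CPM in WT and at 3228, 2845 and 3087 CPM in cKO. Gata6 was at 92.2, 128 and 135 CPM against 123, 175 and 163 CPM, and Adgre1, which encodes F4/80, at 4936 to 6168 against 4720 to 5856 CPM. None of these 3 genes passed the test between genotypes (adjusted p = 0.895, 0.689 and 0.985).

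The 2 targeted genes gave different results. H3f3a (ENSMUSG00000060743, chr1:180800832-180813943, minus strand, mm10) fell from 57.1, 34.6 and 34.6 CPM in WT to 5.22, 4.75 and 3.12 CPM in cKO. Every cKO library lay below every WT library, and the mean was 10.4% of WT (log2 fold change -3.23 ± 0.29 (SE), adjusted p = 0.00373). H3f3b (ENSMUSG00000016559, chr11:116021912-116027962, minus strand) stood at 536, 424 and 355 CPM in WT and at 302, 361 and 323 CPM in cKO. The groups overlapped, and the change did not pass the test (-0.41 ± 0.19, adjusted p = 0.556). In the floxed alleles loxP sites flank 1 exon of H3f3a and all exons of H3f3b. The counts cover whole genes, so they bear on the deletion of H3f3b directly, while for H3f3a they also hold reads of exons outside the deletion. The RNA of H3f3a was low in every cKO library, while most of the H3f3b RNA was still read. H3f3b had the higher CPM of the pair in every library of both genotypes. CPM is not scaled for gene length, and reads with several matches were left out, so the transcripts of the pair are not ranked. These counts therefore do not show that the cKO cells lack H3.3. By qRT-PCR the paper reports the deletion in cKO peritoneal macrophages at the RNA level. It describes loss of H3f3b as variable between cKO samples, complete in some and partial in others. A pool of cells in which only some lost H3f3b and a partial loss per cell cannot be told apart in these bulk samples, nor can fewer cells of a type and less RNA per cell for any gene below. H3f3a-ps1, a pseudogene copy of H3f3a whose reads may be shared with it, was also called lower.

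Lyz2 (chr10:117277331-117282321, minus strand), which encodes lysozyme M and holds the cre, fell from 76406, 52395 and 63840 CPM to 2.10, 3.64 and 1.69 CPM (log2 fold change -14.62 ± 0.43, adjusted p = 2.07e-06). It took 5.05% to 7.66% of the counts of a WT library. Lyz1 (chr10:117287797-117292868, minus strand), the neighbouring lysozyme P gene, rose from 1010, 389 and 428 CPM to 4167, 4374 and 4236 CPM, which is 7.0-fold (2.81 ± 0.36, adjusted p = 0.0138). The 3 cKO libraries lay close together and above all WT libraries. The call of Lyz1 was lost without cKO replicate 1 or 3 (adjusted p up to 0.0602), and reads of these near-identical genes can be assigned to the wrong copy.

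Replication-coupled H3 genes, which cells use during DNA synthesis, were hardly read. All 12 listed genes summed to 0.592 to 0.852 CPM in WT and 0.0856 to 0.422 CPM in cKO, and none was tested. None of 14 genes of H3.3 deposition and its partners passed the test, among them Hira (1.80, 0.781 and 1.37 CPM in WT, 1.46, 1.64 and 1.17 CPM in cKO) and Atrx (93.2, 107 and 93.9 CPM against 104, 78.9 and 94.8 CPM). The median log2 fold change of the 14 was 0.17, beside 0.00 over all genes tested. Daxx, the H3.3 chaperone, stood at 36.3, 52.6 and 49.3 CPM in WT and at 66.9, 64.8 and 75.8 CPM in cKO, with no overlap but an adjusted p of 0.304. The 22 genes of chromatin silencing had no call and a median of 0.15. At an unadjusted p under 0.05, 1 gene of deposition and 2 of silencing were higher and 0 lower, and DESeq2 called 0 in either list.

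Over all genes, 120 of 12361 tested differed between cKO and WT at an adjusted p under 0.05 by edgeR's quasi-likelihood test, which is 0.971%. Of these, 73 were higher in cKO (0.591%) and 47 lower (0.380%). Without regard to a test, 8.47% of the genes had all 3 cKO libraries above all 3 WT libraries and 6.50% had them below. Leaving out 1 library changed the number of calls from 120 to between 24 (without cKO replicate 3) and 142 (without WT replicate 1). It was 56 without WT replicate 2, 52 without WT replicate 3, 32 without cKO replicate 1 and 39 without cKO replicate 2. The calls of 20 genes held in all 6 of these fits, among them H3f3a, Lyz2, Irf7, Oasl1, Ifi44, Slfn4, Mrc1, Vsig4, Cnr2, Stag3, Rab44 and Edil3. With the replicate number as a block, the higher calls fell to 47 and the lower to 42.

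**Figure D1:**
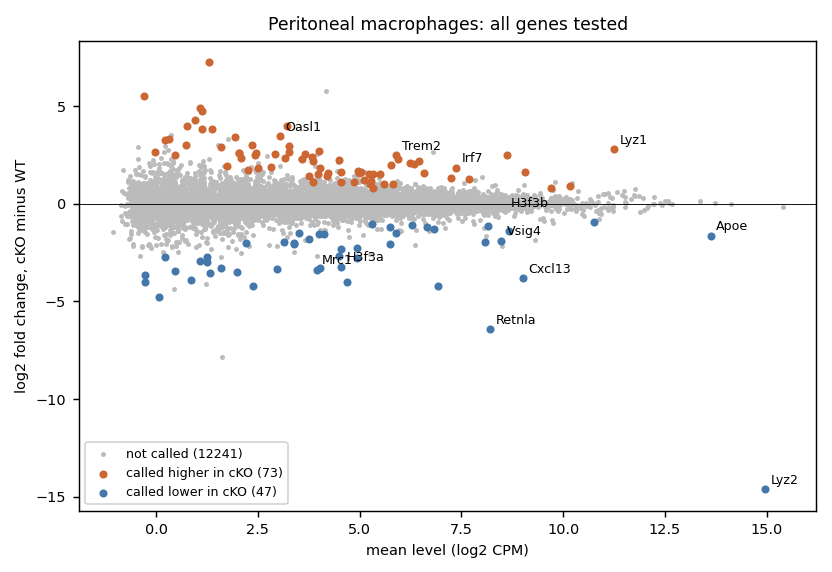
Log2 fold change of cKO against WT (vertical) against the mean level in log2 CPM (horizontal) for the 12361 genes tested in peritoneal macrophages, with 73 genes called higher in orange and 47 called lower in blue. Lyz2 lies alone at -14.62, Lyz1 and Irf7 are among the more abundant genes called higher, and H3f3b is not called.

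Antiviral effectors were among the genes that rose. These are the proteins with which an interferon-treated cell blocks viral RNA, and 40 of the 42 listed were tested. In cKO macrophages 14 rose and 0 fell, beside 0.591% called higher over all genes. The median log2 fold change of the 40 was 0.83, 39 were positive, and in 32 the cKO libraries all lay above the WT libraries, beside 8.47% of all genes.

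Oasl1, an OAS-like protein that lacks synthetase activity and restrains translation of Irf7 mRNA, stood at 2.14, 0.993 and 1.09 CPM in WT and at 13.3, 16 and 14.8 CPM in cKO. The groups were far apart, with a 10.9-fold rise (log2 fold change 3.45 ± 0.32, adjusted p = 0.00373). Ifi44, an interferon-induced protein, rose from 0.562, 0.781 and 0.547 CPM to 5.69, 5.97 and 8.97 CPM (3.42 ± 0.35, adjusted p = 0.00529). Slfn4, a schlafen family gene of myeloid cells, rose 3.08-fold from 232, 296 and 253 CPM to 756, 788 and 863 CPM (1.62 ± 0.16, adjusted p = 0.00455). These 3 genes kept their call without any single library and with the replicate block.

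Ifit1 and Ifit3 encode proteins that bind foreign RNA ends. Ifit1 stood at 3.93, 2.77 and 2.19 CPM in WT against 14.2, 8.71 and 22.5 CPM in cKO (log2 fold change 2.37 ± 0.39, adjusted p = 0.0323). Ifit3 rose from 2.14, 1.49 and 1.09 CPM to 8.56, 6.81 and 12.5 CPM (2.59 ± 0.36, adjusted p = 0.0173). Rsad2, which encodes viperin, an enzyme that makes a chain-terminating nucleotide, rose from 7.87, 2.27 and 3.87 CPM to 22.7, 18.8 and 29.9 CPM (2.39 ± 0.41, adjusted p = 0.0402). In each of the 3, all cKO libraries lay above all WT libraries, and cKO replicate 3 was the highest. Ifit1 and Ifit3 lost the call without WT replicate 2 or 3 or cKO replicate 1 or 3 (adjusted p up to 0.129 and 0.0716), and Rsad2 without any library but WT replicate 1 (up to 0.167). Ifit1 also lost it with the replicate block (adjusted p = 0.0682).

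The other 8 of the 14, named after their values were seen, were Ifit1bl1, Ifit2, Oas3, Oasl2, Mx1, Cmpk2, Apol9a and Apol9b. Oas3, which makes the signal that activates RNase L, rose from 21.4, 35.0 and 29.6 CPM to 77.0, 101 and 186 CPM (2.07 ± 0.34). Mx1, a GTPase against influenza viruses, rose from 9.22, 5.75 and 6.61 CPM to 18.6, 18.2 and 21.7 CPM (1.45 ± 0.23). Apol9a and Apol9b, and Ifit1 and Ifit1bl1, are close copies whose counts may be split unevenly. Of the whole group, 6 were called with the replicate block, 11 without WT replicate 1 and 3 to 5 without any other single library. Over the same genes the median ranged from 0.69 to 0.97 when single libraries were left out. Ifitm3, which blocks entry of viruses, was in the same list at 1432, 978 and 877 CPM in WT and 885, 977 and 1458 CPM in cKO, with overlap and no call (0.01, adjusted p = 0.992).

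**Figure D2:**
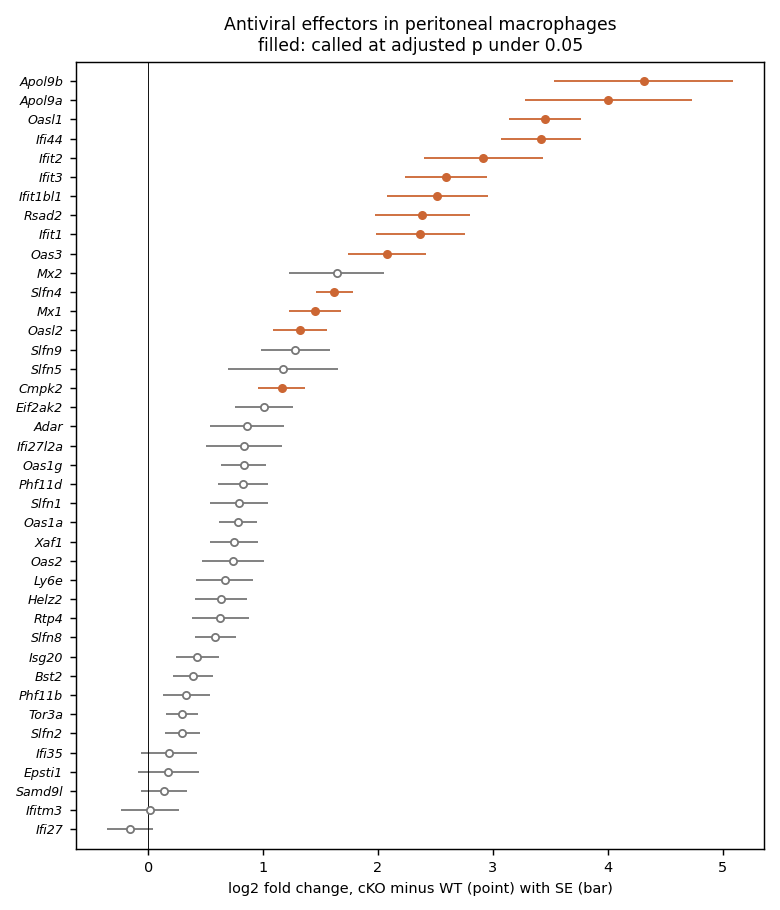
Log2 fold change of cKO against WT in peritoneal macrophages (point, with its SE as a bar) for the 40 antiviral effectors tested, ordered by size, with the 14 called genes filled. Apol9b has the highest value at 4.31, and Ifi27 is the only one below 0 at -0.16.

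Promoter sequence was read for these genes because they moved together, in the RefSeq windows of GRCm38.p6 from 250 bases before to 50 after a start. The ISRE core was searched as GAAANNGAAA on both strands, and appears as TTTCNNTTTC where it lies on the other strand. It was found in 3.44% of all 32851 windows and in 3.32% of those of the genes tested. Of the windows of genes called higher, 12 of 71 held it (16.9%), of those called lower 1 of 41 (2.44%), and of the antiviral effectors 20 of 41 (48.8%). The GAS core, TTCNNNGAA, was found in 6.96% of windows of the genes tested, in 2.82% of those called higher and 9.76% of those called lower. The 5 stretches shown are from promoters of genes that rose and hold an ISRE core, with the core in capitals, written 5′ to 3′ along the gene and ending before its start.
Ifit1 (chr19:34640745-34640853, plus strand): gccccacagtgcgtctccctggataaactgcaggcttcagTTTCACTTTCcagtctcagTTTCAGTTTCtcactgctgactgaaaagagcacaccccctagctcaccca
Ifit3 (chr19:34583333-34583456, plus strand): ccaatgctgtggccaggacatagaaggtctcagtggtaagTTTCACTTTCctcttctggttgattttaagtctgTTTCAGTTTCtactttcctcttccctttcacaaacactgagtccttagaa
Rsad2 (chr12:26456523-26456612, minus strand): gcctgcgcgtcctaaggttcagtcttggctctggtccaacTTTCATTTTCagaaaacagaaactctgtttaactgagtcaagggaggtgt
Oas3 (chr5:120777685-120777774, minus strand): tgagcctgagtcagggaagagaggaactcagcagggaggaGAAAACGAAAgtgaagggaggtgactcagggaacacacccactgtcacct
Ifi213 (chr1:173599296-173599385, minus strand): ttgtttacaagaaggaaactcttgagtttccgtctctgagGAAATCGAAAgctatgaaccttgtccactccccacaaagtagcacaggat
Ifit1 and Ifit3 hold 2 cores each and the other 3 stretches 1 each. The windows of Irf7, Oasl1, Ifi44 and Slfn4 hold no exact match to these letters.

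Among the factors and receptors of interferon signalling, Irf7 was the 1 called gene of 20 tested. It encodes the interferon regulatory factor that amplifies type I interferon production. Its level rose 3.63-fold, from 80.9, 69.1 and 65.5 CPM to 249, 233 and 301 CPM (log2 fold change 1.86 ± 0.17, adjusted p = 0.00373), and the call held in all fits without a single library. The median of the 20 genes was 0.09. The RNA of the ligands was at the edge of detection: Ifnb1 had 1 count in cKO replicate 2, Ifng 1 count in WT replicate 2 and Ifna4 0 counts in all 6 libraries.

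The other interferon-related lists had fewer calls. Ifi213, a DNA-sensing family (PYHIN) gene, rose from 1.01, 0.639 and 1.60 CPM to 6.12, 5.17 and 9.62 CPM (log2 fold change 2.62 ± 0.41, adjusted p = 0.0285), the 1 call among 10 genes of that family. Gbp4, a guanylate-binding protein, rose from 4.16, 4.61 and 3.14 CPM to 28.1, 11.6 and 19.2 CPM (2.32 ± 0.35, adjusted p = 0.0258), the 1 call among 18 interferon-inducible GTPases. Both were non-overlapping. The call of Ifi213 was lost without any library but WT replicate 3 (adjusted p up to 0.112), and that of Gbp4 without WT replicate 2 or 3 or cKO replicate 1 or 3 (up to 0.0911). No call was made among 11 nucleic acid sensors (median 0.34), 6 genes of ISG15 conjugation (0.62), 17 PARP and TRIM genes (0.39) and 22 MHC class I genes (0.27). At an unadjusted p under 0.05, 5, 4, 2 and 5 genes of these lists were higher and 0 lower, and DESeq2 called 2, 3, 0 and 1 higher. All medians lay above the 0.00 of all genes. A list of canonical interferon genes overlaps with those above and was set in earlier work on these data, so its counts give no independent support. Of its 53 genes tested, 11 were called higher, beside 0.591% of all genes. With the replicate block 6 were called, and 3 to 11 without a single library. All 53 were positive, beside 50.7% of all genes, with a median of 0.67. Without single libraries 53 or 54 of the list were tested and 52 to 54 were positive.

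To compare with a response to interferon itself, genes were sorted by the response of WT day 8 BMDMs to interferon-γ for 12 h. In those cells 1374 of 12059 genes (11.4%) rose at an adjusted p under 0.05 and a log2 fold change above 1. Among genes tested in both cell sets, 29 of the 54 that were higher in cKO peritoneal macrophages were raised by interferon-γ (53.7%), against 3 of the 30 lower genes (10%) and 1135 of all 10864 genes (10.4%). Taken the other way, 2.56% of the 1135 raised genes were called higher in cKO peritoneal macrophages and 0.264% lower, beside 0.497% and 0.276% of all genes tested in both. The median log2 fold change of the 1135 was 0.07 and 57.4% were positive, beside 0.00 and 50.7% over all genes tested in peritoneal macrophages.

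The genes that fell were read against lists of resident and of small macrophage genes. Of 26 resident macrophage genes tested, 0 rose and 2 fell, beside 0.591% and 0.380% over all genes, and the median was 0.00. Timd4, the phosphatidylserine receptor TIM4, stood at 1229, 1521 and 1355 CPM in WT and at 1169, 961 and 1253 CPM in cKO (-0.28, adjusted p = 0.714). Icam2 was at 1428, 1076 and 997 against 1006, 941 and 1286 CPM (-0.11, adjusted p = 0.915), and Itgam, which encodes CD11b, at 562, 859 and 921 against 983, 958 and 1031 CPM (0.34, adjusted p = 0.711). None of these 3 passed the test, and of the 3 only Itgam had groups without overlap. The 2 resident genes that fell were Cxcl13 and Vsig4. Vsig4, a complement receptor of resident macrophages, fell from 549, 501 and 640 CPM to 130, 169 and 158 CPM (-1.88 ± 0.17, adjusted p = 0.00373). Cxcl13, the chemokine that draws B1 cells to the body cavities, fell from 397, 804 and 1694 CPM to 39.9, 58.9 and 107 CPM (-3.82 ± 0.57, adjusted p = 0.0258). Vsig4 held in every fit without a single library. Cxcl13 lost the call without WT replicate 2 or any 1 cKO library (adjusted p up to 0.105).

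Among genes of small peritoneal and monocyte-derived macrophages, 5 of 13 tested fell and 1 rose, beside 0.380% and 0.591% over all genes, with a median of -1.47. Retnla, a secreted protein of alternative activation, stood at 1304, 179 and 274 CPM in WT and at 7.66, 6.70 and 5.85 CPM in cKO, or 1.15% of the WT mean (log2 fold change -6.43 ± 0.80, adjusted p = 0.0137). Mrc1, the mannose receptor CD206, fell from 37.7, 16.1 and 30.6 CPM to 3.34, 2.90 and 1.56 CPM (-3.37 ± 0.38, adjusted p = 0.00889). Lyve1, a hyaluronan receptor, fell from 102, 12.3 and 33.2 CPM to 3.68, 3.22 and 1.95 CPM (-3.99 ± 0.72, adjusted p = 0.0466). For all 3 the groups were apart, and WT replicate 1 was the highest library. Cd163, the haemoglobin scavenger receptor, fell from 56.2, 25.3 and 33.9 CPM to 5.27, 11.3 and 6.89 CPM (-2.29 ± 0.37, adjusted p = 0.0315). Cd209a, a lectin of dendritic and monocyte-derived cells, fell from 22, 15.7 and 12.5 CPM to 6.64, 5.91 and 5.33 CPM (-1.47 ± 0.25, adjusted p = 0.0402).

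The gene of this list that rose was Plac8, from 1.46, 3.69 and 1.46 CPM to 14, 7.28 and 17.6 CPM (2.53 ± 0.46, adjusted p = 0.0467). The rest of the list did not move as a block. Mgl2, a lectin, stood at 19.6, 4.33 and 14.5 CPM in WT and at 20.6, 22.1 and 13 CPM in cKO (0.56, adjusted p = 0.801), and Irf4 at 9.33, 18.7 and 28.5 against 23.2, 16 and 17.9 CPM (0.01, adjusted p = 0.999). Over the same genes the median was -1.04 without WT replicate 1 and -1.36 to -1.68 without any other single library. Without WT replicate 1, 5 genes of the list were called lower. Without any other single library 1 to 4 were called lower, with 1 without cKO replicate 1 and 1 without cKO replicate 3. Mrc1 held in every fit without a single library. Retnla lost the call without any 1 cKO library (adjusted p up to 0.0716), Lyve1 without those or WT replicate 3 (up to 0.202), Cd163 without WT replicate 3 or cKO replicate 1 or 3 (up to 0.153), Cd209a without WT replicate 2 or any 1 cKO library (up to 0.183) and Plac8 without any library but WT replicate 2 (up to 0.179). With the replicate block, Cd163 (adjusted p = 0.0977), Lyve1 (0.0579) and Plac8 (0.135) were not called.

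MHC class II genes, which present antigen and mark small peritoneal macrophages, summed to 2967, 1549 and 1345 CPM in WT and to 1188, 377 and 537 CPM in cKO. The sums did not overlap, but cKO replicate 1 came close to the lowest WT library. Of 9 genes tested, 0 were called by edgeR and 8 were negative, with a median of -1.24. At an unadjusted p under 0.05, 5 were lower, and DESeq2 called 2 lower. With the replicate block 3 of the 9 were called lower. Ciita, the activator of this gene family, stood at 5.73, 6.03 and 3.92 CPM in WT and at 2.18, 1.58 and 2.99 CPM in cKO (-1.24 ± 0.34, adjusted p = 0.204). It was named after its values were seen.

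Other genes that fell were outside these lists or in lists of other functions. F13a1, the factor XIII A chain, fell from 376, 110 and 210 CPM to 17.2, 14.8 and 4.55 CPM (log2 fold change -4.21 ± 0.57, adjusted p = 0.0166). Cbr2, a carbonyl reductase, fell from 54.7, 13.3 and 21.4 CPM to 2.87, 2.90 and 3.25 CPM (-3.31 ± 0.51, adjusted p = 0.0275). Edil3, which encodes the integrin ligand DEL-1, fell from 30.1, 42.5 and 43.1 CPM to 5.52, 4.96 and 8.06 CPM (-2.67 ± 0.25, adjusted p = 0.00388). The groups of all 3 were clearly apart. Plxnd1, a semaphorin receptor, fell from 25.4, 76.5 and 57.6 CPM to 6.12, 7.55 and 10.5 CPM (-2.75 ± 0.40, adjusted p = 0.0236). Mmp9, a gelatinase, fell from 53.5, 38.5 and 58.0 CPM to 4.97, 12.5 and 14.3 CPM (-2.27 ± 0.37, adjusted p = 0.0323). Cxcl14, a chemokine, fell from 10.8, 13.6 and 17.1 CPM to 3.47, 2.90 and 4.68 CPM (-1.94 ± 0.27, adjusted p = 0.0195). Again no library of one genotype reached the range of the other.

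At higher levels, Apoe, the lipid carrier, fell from 21822, 15588 and 20101 CPM to 7989, 4263 and 6381 CPM (log2 fold change -1.63 ± 0.25, adjusted p = 0.0263). It was the 1 call among 20 genes of lipid handling. Fcgr2b, the inhibitory Fc receptor, fell from 353, 470 and 348 CPM to 170, 156 and 200 CPM (-1.15 ± 0.18, adjusted p = 0.0285). Both groups were apart without overlap. Fpr1, the formyl peptide receptor, named after its values were seen, fell from 96.3, 71.1 and 90.9 CPM to 19.7, 23.1 and 19.2 CPM (-2.05 ± 0.18, adjusted p = 0.00373). Of the genes in this paragraph and the one before, Edil3 and Fpr1 held in every fit without a single library. F13a1 and Cbr2 were lost without any 1 cKO library (adjusted p up to 0.0687 and 0.112), Apoe without WT replicate 3 or cKO replicate 2 or 3 (up to 0.112), Plxnd1, Cxcl14 and Fcgr2b without any library but WT replicate 1 (up to 0.107, 0.0987 and 0.148) and Mmp9 without any library but cKO replicate 1 (up to 0.0984). With the replicate block Fcgr2b (0.0804) and Mmp9 (0.0570) were not called.

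Genes that rose outside the lists of interferon genes included receptors. Cnr2, the cannabinoid receptor of immune cells, rose from 2.25, 1.14 and 2.96 CPM to 20.5, 14.5 and 15 CPM (log2 fold change 2.96 ± 0.35, adjusted p = 0.0113). It was also among the genes raised by interferon-γ in WT day 8 BMDMs, while Trem2 was not. Trem2, a lipid-sensing receptor, rose 5.63-fold from 26.3, 10.3 and 17.7 CPM to 93.8, 117 and 92.4 CPM (2.49 ± 0.32, adjusted p = 0.0138). Both were apart between genotypes, and the call of Cnr2 held in every fit without a single library. Trem2 was lost without WT replicate 3 or cKO replicate 1 or 3 (adjusted p up to 0.0597).

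A further set has less obvious roles in macrophages. Rab44, a large Rab GTPase, rose from 3.37, 4.05 and 3.55 CPM to 22.9, 24 and 17.3 CPM (2.55 ± 0.22, adjusted p = 0.00373). Stag3, a cohesin subunit of meiosis, rose from 1.69, 2.84 and 3.01 CPM to 14.7, 22.3 and 12.1 CPM (2.67 ± 0.32, adjusted p = 0.0118). Myh7, a myosin heavy chain of heart and slow muscle, rose from 5.51, 3.83 and 3.55 CPM to 18, 41.3 and 23.3 CPM (2.70 ± 0.35, adjusted p = 0.0147). In each of them the lowest cKO library was above the highest WT library. Emp1, a membrane protein, rose from 15.2, 28.0 and 17.9 CPM to 67.4, 144 and 94.8 CPM (2.32 ± 0.33, adjusted p = 0.0200), and the pseudogene I830127L07Rik from 1.57, 1.42 and 0.456 CPM to 21.6, 20.2 and 8.32 CPM (3.97 ± 0.52, adjusted p = 0.0150). Alox5, the 5-lipoxygenase of leukotriene synthesis, rose 1.75-fold from 598, 574 and 658 CPM to 1067, 1098 and 1041 CPM (0.81 ± 0.14, adjusted p = 0.0409). It was the smallest change among the genes named here as called, with narrow groups. Rab44 and Stag3 held in every fit without a single library. Myh7 was lost without WT replicate 2 or 3 or cKO replicate 3 (adjusted p up to 0.0590), Emp1 without WT replicate 3 or cKO replicate 2 or 3 (up to 0.0725), I830127L07Rik without cKO replicate 1 or 2 (up to 0.0652) and Alox5 without any library but WT replicate 1 (up to 0.196) and with the replicate block (0.0977).

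**Figure D3:**
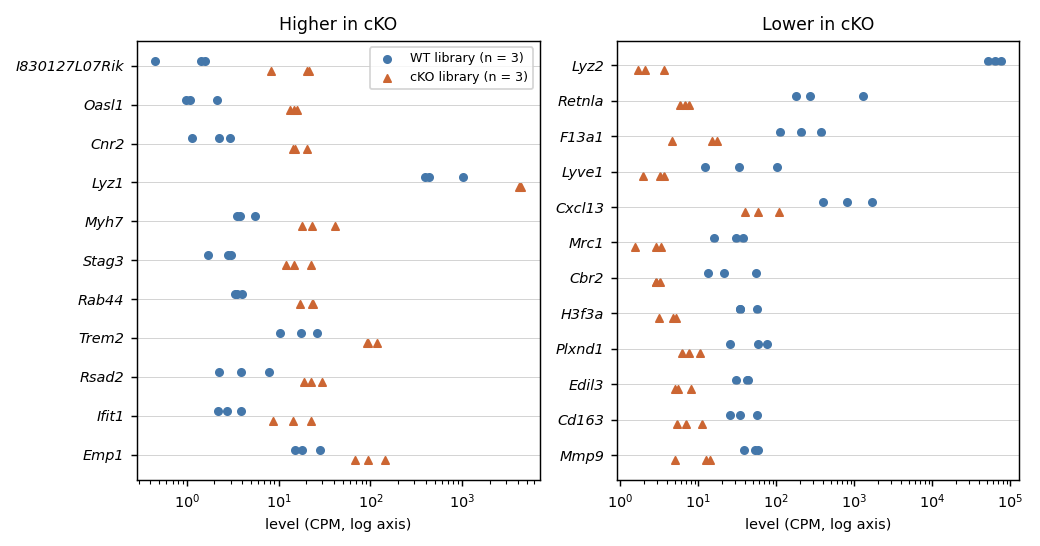
Level in CPM (log axis) in each of the 6 peritoneal libraries for 11 of the 12 genes with the largest rise and the 12 with the largest fall among called genes with a mean of at least 3 log2 CPM and groups that do not overlap. Circles are WT and triangles cKO libraries; Retnla ranges from 179 to 1304 CPM within WT but stays between 5.85 and 7.66 CPM in cKO.

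Markers of other cell types were read beside these groups, and their part in the results was not tested. T and NK cell markers were low and had positive log2 fold changes: 13 of 13 tested had a positive log2 fold change, with a median of 1.49, and their sums were 46.2, 11.6 and 11.4 CPM in WT and 93.8, 25.2 and 33.5 CPM in cKO. Cd8b1 was the 1 called gene, at 0.225, 0.071 and 0.091 CPM against 7.06, 1.53 and 2.21 CPM (4.92 ± 0.82, adjusted p = 0.0341). That call was lost without any library but cKO replicate 2 (adjusted p up to 0.160). Cd3e, a T cell receptor chain, stood at 1.46, 0.142 and 0.957 CPM against 5.74, 1.58 and 1.56 CPM (1.89, adjusted p = 0.473). The sums overlapped, and without cKO replicate 1 the median of the list was 0.92.

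Among monocyte markers Plac8 was called higher and F13a1 lower. Mesothelial and stromal markers summed to 113, 35.5 and 21.4 CPM in WT and to 32.4, 10.7 and 41.9 CPM in cKO, highest in WT replicate 1, with 0 called of 9 (1 lower at an unadjusted p under 0.05, 0 called by DESeq2). Among neutrophil markers 1 of 7 was called, Mmp9, and S100a8 stood at 6.07, 26.5 and 5.29 CPM against 3.98, 4.22 and 5.33 CPM (-1.50, adjusted p = 0.456). The list summed to 68.6, 119 and 72.3 CPM in WT and to 21.9, 35.3 and 40.4 CPM in cKO. Mmp9 gave 53.5, 38.5 and 58.0 CPM of these sums in WT and 4.97, 12.5 and 14.3 CPM in cKO. Without Mmp9 the sums of WT and cKO overlap. Of 6 dendritic cell markers tested, Cd209a alone was called. Of 3 B cell markers tested 0 were called by edgeR, 0 passed an unadjusted p under 0.05 and DESeq2 called 0. Cpa3 of mast cells did not exceed 0.556 CPM in any library.

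Genes of cell division had positive log2 fold changes without passing the test. Of 30 tested, 0 were called by edgeR, 13 were higher at an unadjusted p under 0.05 and 4 were called higher by DESeq2. All 30 were positive, 7 had cKO libraries all above the WT libraries (23.3%, beside 8.47% of all genes), and the median log2 fold change was 0.77. Mki67, which encodes the proliferation marker Ki-67, stood at 33.8, 36.5 and 34.9 CPM in WT and at 45.8, 76.9 and 71.8 CPM in cKO (0.88 ± 0.21, adjusted p = 0.152). The list summed to 1202, 856 and 673 CPM in WT and to 967, 2020 and 1357 CPM in cKO, so that cKO replicate 1 lay among the WT libraries and cKO replicate 2 was the highest. The median fell to 0.39 without cKO replicate 2 and rose to 1.02 without WT replicate 1. No call was made among 42 genes of nucleotide synthesis (median -0.03), 19 targets of p53 (-0.01), 34 genes of apoptosis (-0.06), 26 genes of sterol synthesis (0.00), 17 genes of uptake of dying cells (-0.28), 22 core macrophage genes (-0.01) or 12 housekeeping genes (-0.01). At an unadjusted p under 0.05 these lists held 3, 3, 3, 1, 0, 3 and 0 higher and 0, 0, 2, 0, 2, 2 and 0 lower genes in that order, and DESeq2 called 1 gene of nucleotide synthesis higher and 1 of uptake of dying cells lower.

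In other lists the calls were those of genes already named. Cxcl13 and Cxcl14 fell among 23 cytokines (median 0.18), Fcgr2b among 15 Fc and Toll-like receptors (-0.23), Vsig4 among 16 complement genes (-0.11), Cd163 among 13 genes of iron handling (-0.18), and Retnla, Mrc1 and Cd163 among 15 genes of alternative activation (-0.27). Alox5 rose among 14 inflammatory enzymes (0.21).

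The called genes were also placed along the genome, since the cre allele and the deletions are at fixed places. Within 20 Mb of Lyz2, 1 of 131 genes tested was called (0.763%), which was Lyz1. Within 20 Mb of H3f3a 3 of 209 were called (1.44%) and of H3f3b 2 of 345 (0.580%), beside 0.971% over all genes. Called genes lay closer together in some places. On chromosome 19 the called genes Ifit2, Ifit3, Ifit1bl1 and Ifit1 lie between positions 34550694 and 34650009. Another such place, found after the values were seen, was on chromosome 16. There 4 of 15 genes tested within 1 Mb were called, and they moved in opposite directions. Adprh (chr16:38444030-38452703, minus strand), which removes ADP-ribose from arginine, rose 4.03-fold from 22.1, 20.9 and 22 CPM to 90.6, 88.7 and 82.3 CPM (2.01 ± 0.15, adjusted p = 0.00289). Pla1a (chr16:38396117-38433145, minus strand), a phospholipase, fell from 9.44, 5.25 and 6.88 CPM to 0.599, 0.739 and 0.520 CPM (-3.48 ± 0.35, adjusted p = 0.00529). Timmdc1 (chr16:38498347-38522663, minus strand), an assembly factor of mitochondrial complex I, fell from 17.8, 17 and 14.9 CPM to 3.98, 3.70 and 4.81 CPM (-2.01 ± 0.21, adjusted p = 0.00562). These 3 had narrow groups and kept their call in every fit without a single library.

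Arhgap31, a GTPase-activating protein, rose from 11.7, 15.7 and 19.9 CPM to 37.5, 47.3 and 56.9 CPM (1.57 ± 0.24, adjusted p = 0.0281), and lost the call without WT replicate 2 or any 1 cKO library (adjusted p up to 0.120). Genes lying between these were not called: Cd80, a T cell costimulator between Adprh and Timmdc1, stood at 20.7, 23.1 and 27.7 CPM in WT and at 26.3, 21 and 21.2 CPM in cKO (-0.06, adjusted p = 0.959), and Poglut1 at 65.2, 66.2 and 62.2 against 58.6, 55.9 and 60.6 CPM (-0.15, adjusted p = 0.838).

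**Figure D4:**
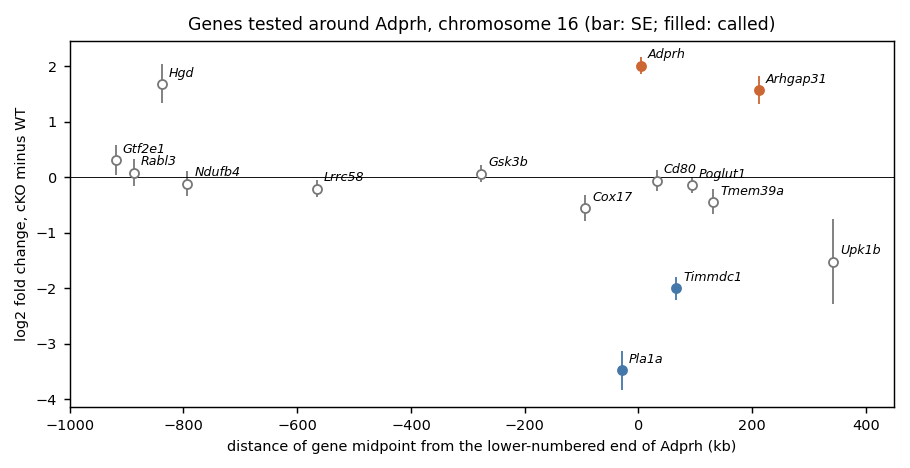
Log2 fold change of cKO against WT (point, with SE as a bar) for the 15 genes tested around Adprh on chromosome 16, by the distance of the gene's midpoint from the lower-numbered end of Adprh in kb, with called genes filled. Adprh and Arhgap31 lie above 0 at 2.01 and 1.57, Timmdc1 and Pla1a below at -2.01 and -3.48, and Cd80 near 0 between Adprh and Timmdc1.

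The cKO effect was compared with that in cultured BMDMs, in day 8 cells without interferon-γ (3 WT and 2 cKO libraries, with 2 further cKO libraries of conflicting treatment labels left out) and in cells kept without antibody (3 and 3). By the methods the peritoneal libraries were made with a low-input kit and the BMDM libraries with another, while the labels give rRNA depletion for both, and the kit cannot be told apart from the cell type. Each difference was tested as an interaction. Against day 8 cells the effect differed in 26 of 13671 genes, with 9 more positive in peritoneal macrophages (0.0658%) and 17 more negative (0.124%). Against the cells without antibody it differed in 182 of 16503 genes, 90 more positive (0.545%) and 92 more negative (0.557%).

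For H3f3b the effect differed from that in BMDMs without antibody and not by call from that in day 8 cells. In BMDMs without antibody it stood at 307, 435 and 301 CPM in WT against 47.8, 57.8 and 29.4 CPM in cKO, a log2 fold change of -2.95, beside -0.42 in peritoneal macrophages in the same fit (difference 2.53 ± 0.34, adjusted p = 0.00399). In day 8 cells it stood at 235, 281 and 261 CPM in WT and at 200 and 213 CPM in cKO, and the difference from peritoneal macrophages was not called (-0.10 ± 0.24, adjusted p = 0.992). For H3f3a the difference was not called in either comparison (adjusted p = 0.825 and 0.715).

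Antiviral genes had positive log2 fold changes in all 3 sets, and no difference was called for the 5 read closely. The log2 fold change of Irf7 was 2.08 in day 8 BMDMs and 3.51 in BMDMs without antibody, beside 1.85 in peritoneal macrophages (differences -0.22 ± 0.26, adjusted p = 0.961, and -1.66 ± 0.54, adjusted p = 0.160). For Oasl1 the differences were 0.55 ± 0.36 (adjusted p = 0.886) and -0.90 ± 0.54 (0.438), for Ifit3 0.64 ± 0.36 (0.851) and -1.34 ± 0.77 (0.411), for Ifi44 -0.06 ± 0.66 (0.9999) and -1.60 ± 0.80 (0.348) and for Mx1 -0.61 ± 0.29 (0.776) and -0.49 ± 0.50 (0.664). The median log2 fold change of the 41 antiviral effectors tested with the BMDMs was 0.82 in peritoneal macrophages, 1.42 in day 8 cells and 2.07 without antibody. Of the 41, 0 differed by call from day 8 cells and 2 from the cells without antibody (4.88%), both less raised in peritoneal macrophages, beside 0.557% of all genes with a more negative effect there. Of the 55 canonical interferon genes tested with the BMDMs, 1 differed from day 8 cells (1.82%, beside 0.124%) and 6 from the cells without antibody (10.9%, beside 0.557%), all with a more negative value in peritoneal macrophages. The median difference of the 55 was -0.48 and -1.08. The canonical list was set in earlier work on these data, and all 55 were positive in both BMDM sets. The antiviral list was also chosen with earlier results of these data known, and 40 of its 41 genes were positive in each BMDM set. The sign of these differences is therefore not independent of how either list was chosen.

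Several effects differed by call between peritoneal macrophages and BMDMs. Mrc1 fell by 3.36 on the log2 scale in peritoneal macrophages and stood at 638, 1112 and 842 CPM in WT day 8 cells against 605 and 523 CPM in cKO (difference -2.74 ± 0.47, adjusted p = 0.0450). Gpnmb, a glycoprotein of lipid-laden macrophages, rose from 2.47, 0.852 and 1.50 CPM to 9.03, 7.55 and 10.1 CPM in peritoneal macrophages but stood at 8664, 11133 and 9740 CPM against 8712 and 8899 CPM in day 8 cells (difference 2.67 ± 0.38, adjusted p = 0.0146). Timmdc1, lower in every peritoneal cKO library, stood at 13.2, 16 and 12.8 CPM in WT and at 13 and 15.2 CPM in cKO day 8 cells (difference -2.03 ± 0.25, adjusted p = 0.00972, and 0.0971 without cKO day 8 replicate 2), and the difference was also called without antibody (-2.26 ± 0.24, adjusted p = 0.000719). Adprh, in contrast, had no called difference (adjusted p = 0.844 and 0.137). Without antibody it stood at 33, 20.1 and 25.5 CPM in WT and at 57.1, 61.1 and 59.9 CPM in cKO. The calls of Mrc1 and Gpnmb against day 8 cells were lost without single libraries, for Mrc1 without any but WT peritoneal replicates 1 and 2 (adjusted p up to 0.205), and for Gpnmb without WT peritoneal replicate 3, cKO peritoneal replicate 3, WT day 8 replicate 3 or either cKO day 8 library (up to 0.124).

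For the 73 genes called higher in peritoneal cKO macrophages the median log2 fold change was 0.52 in day 8 cells, with 55 positive and 12 negative. It was 0.86 without antibody, with 54 positive and 17 negative. Over all genes, 6794 were positive and 6738 negative in day 8 cells, and 8247 and 8189 without antibody. The 47 lower genes had medians of -0.26 and -0.29. Both sets were picked by their change in peritoneal macrophages, and this selection alone favours larger values there than in the BMDMs. Genes of cell division had medians of -0.12 and -0.30 in the BMDMs beside 0.76 and 0.77 in peritoneal macrophages, and of these 30 genes 0 and 2 differed by call.

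**Figure D5:**
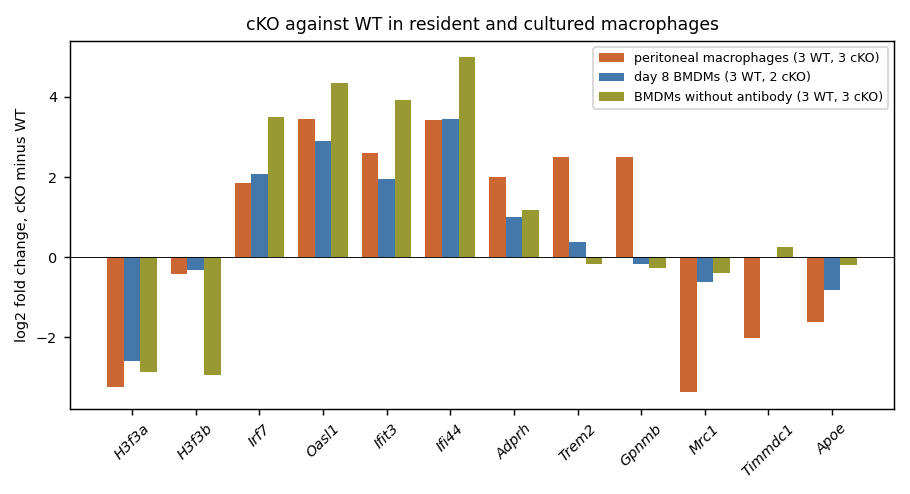
Log2 fold change of cKO against WT (bars from 0) for 12 genes in peritoneal macrophages, day 8 BMDMs and BMDMs without antibody, the first from the peritoneal fit and the others from the interaction fits. Irf7, Oasl1, Ifit3 and Ifi44 lie above 0 in all 3 sets, while Trem2, Gpnmb, Mrc1 and Timmdc1 lie farthest from 0 in peritoneal macrophages and H3f3b lies lowest without antibody.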

How the data were processed

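RNA-seq counts were deposited by the authors as raw counts per gene from STAR, after Cutadapt and alignment to mm10 (the assembly of GRCm38) per the labels. The methods name RSEM and SARTools, whose output was not used here. For the peritoneal cells the methods give Trizol and SMART-Seq v4, while the labels give a column kit and rRNA depletion. Counts without regard to strand were used, and lines that name no gene (unmapped 1.69% to 2.17%, multimapping 5.81% to 7.54%) were left out. The files list 54146 genes. Gene positions were taken from GENCODE release M21.

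Genes were filtered with filterByExpr (count minimum 10, total 15), scaled by TMM and tested with edgeR's quasi-likelihood test (edgeR 4.0.16, limma 3.58.1, R 4.3.3) with genotype as the only term, and p-values were adjusted by Benjamini-Hochberg over all genes tested. An adjusted p under 0.05 made a call. No pair of replicates agreed within sampling noise (chi-square per degree of freedom 16.8 to 84.6). P-values measure the spread between these libraries. The test was checked on simulated counts of 12199 genes for this comparison: it found 35.0% of changes of 1 and 100% of changes of 2 on the log2 scale, with 4 false calls. Every simulated gene had the same spread between libraries, unlike the real genes, so these shares do not carry over to genes that vary more. Car6, Tjp1, Cd209b and Chil3, given below, had estimates beyond 2 and were not called.

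The genes and lists were chosen with earlier results of these data known. Named genes were the targets with Lyz1, the 12 largest rises and falls among called genes whose groups do not overlap and whose mean is 3 log2 CPM or more, up to 4 called members in each direction of each list, defining markers, and the 6 largest called differences from BMDMs in each direction. Others are said to be chosen after their values were seen, as were Ifnb1, Ifng, Ifna4, Hira, Atrx, Daxx, Ifitm3, Mgl2, Irf4, Cd80 and Poglut1. Same-numbered WT and cKO libraries deviated together from their group means (r = 0.144, 0.184 and 0.194, and 0.131, 0.163 and 0.112 on genes outside X and Y). Pairs with different numbers had r from -0.212 to 0.047, and from -0.241 to 0.108 on genes outside X and Y. Deviations within a group sum to 0, so the values of these pairs are not independent. By this check alone the numbers were used as a block in an alternative fit, while the main test left them out. Same-numbered libraries also shared sex, and the labels do not say what the numbers mark. Alternatives were DESeq2 1.42.0, RLE scaling, other filters, Lyz2 left out, a replicate block, glmTreat and each library left out. A few named genes are not reported here. Sex as a term was chosen after seeing the data.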

Additional observations from a re-analysis of the deposited data

Results flagged for a closer look

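The following differences between the cKO effect in peritoneal macrophages and in BMDMs passed the interaction test of edgeR, and are given as the peritoneal minus the BMDM log2 fold change. A positive value means a more positive cKO effect in peritoneal macrophages.

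Against day 8 BMDMs the largest positive differences were those of Cnr2 (2.94), Hebp1 (2.87), Gpnmb (2.67), Tbc1d2 (2.17), Cuedc1 (1.86) and Arhgap31 (1.74). In day 8 cells Cnr2 stood at 37.2, 35.9 and 37.7 CPM in WT and at 35.1 and 39.0 CPM in cKO. The largest negative differences were those of Ramp3 (-5.47), Fcrls (-4.02), Lyz2 (-3.81), Cxcl12 (-3.10), Iigp1 (-2.93) and Mrc1 (-2.74), followed here by Timmdc1 (-2.03). Ramp3 was hardly read in WT day 8 cells, at 0, 0 and 0.101 CPM against 2.15 and 3.35 CPM in cKO, so the size of its difference is uncertain. Iigp1, an interferon-inducible GTPase, stood at 2.63, 2.45 and 2.73 CPM in WT against 24.8 and 26 CPM in cKO day 8 cells, while its log2 fold change in peritoneal macrophages was 0.35. Of these differences, Hebp1 and Lyz2 held without any single library, and with 1 cKO day 8 library left the lone sample is assumed to vary like the other groups.

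Against BMDMs without antibody 90 differences were positive and 92 negative. The 6 largest positive ones among called genes with a mean of 3 log2 CPM or more, with 3 genes followed from the report, were those of A530010L16Rik (5.60), Psrc1 (3.85), Itgb3 (3.83), Hebp1 (3.19), C1qtnf6 (3.05), Tbc1d2 (3.04), Gpnmb (2.77), Trem2 (2.67) and H3f3b (2.53). The 6 largest negative ones by the same rule, with 3 genes followed from the report, were those of Gm4951 (-5.58), Lyz2 (-5.48), Iigp1 (-4.64), Pla1a (-4.47), F13a1 (-4.34), Tgtp2 (-4.09), Pomk (-3.85), Mrc1 (-2.97) and Timmdc1 (-2.26). Some of these sizes rest on BMDM levels near 0 and are uncertain. A530010L16Rik stood at 0.568, 0.917 and 0.563 CPM in WT and at 0, 0.073 and 0 CPM in cKO BMDMs. In WT BMDMs Gm4951 stood at 0.236, 0.044 and 0.094 CPM, Tgtp2 at 0.284, 0.087 and 0.141 CPM and Iigp1 at 0.378, 0 and 0 CPM. F13a1 stood at 374, 110 and 186 CPM in WT and at 133, 292 and 316 CPM in cKO BMDMs. Pomk, a kinase of dystroglycan glycosylation, stood there at 20.6, 12.5 and 13.1 CPM in WT against 150, 82.6 and 91.8 CPM in cKO. Lyz2 stood at 10934 to 11011 CPM in WT and at 5.42 and 6.80 CPM in cKO day 8 cells, and at 4901 to 10418 CPM in WT and at 14.6, 10.9 and 12.4 CPM in cKO cells without antibody. Compared with peritoneal macrophages the WT level was lower and the cKO level higher in both. Of these differences, those of Psrc1, Itgb3, Gpnmb, Trem2, Iigp1, F13a1 and Tgtp2 lost the call without at least 1 single library, and that of Itgb3 also with the replicate block (adjusted p = 0.0721). Leaving out WT BMDM replicate 1 of the cells without antibody raised the number of genes that differed from 182 to 1100.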

How the results depend on the processing

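No called gene changed direction under any alternative. Calls in either direction, higher and lower were 120, 73 and 47, against 336, 212 and 124 with DESeq2, 563, 352 and 211 without a filter on low counts, 19, 10 and 9 for a log2 fold change of at least 1 (glmTreat) and 78, 44 and 34 with sex as a term, an alternative chosen after seeing the data. RLE scaling, a mean of at least 1 CPM and leaving out Lyz2 gave 122, 102 and 117 calls. The replicate block gave 89 calls, 47 higher and 42 lower, with 77 shared with the 120, and 31 of the 38 named called genes were called with it. Leaving out single libraries gave 24 to 142 calls, 14 to 81 higher and 10 to 61 lower. Genes that differed from day 8 BMDMs numbered 26, 124 with DESeq2 and 4 to 47 with a library left out, and those that differed from BMDMs without antibody 182, 796 with DESeq2, 145 with the replicate block and 59 to 1100 with a library left out. The interferon-γ list held 1374 genes, 553 for a log2 fold change above 2, 1397 with the replicate block and 1320 to 1507 with a library left out. No paired fit was made against day 8 cells, whose replicate numbers are incomplete. Adgre1, not called at 0.02, was -0.0015 without Lyz2 and ranged from -0.0479 to 0.1144 without single libraries (-0.0308, -0.0423 and -0.008 among them), and Icam2, not called, ranged from -0.257 to 0.0553. Depth limits genes below about 1 CPM, and 3 libraries a group miss most changes of 1 on the log2 scale.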

Other observations

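Some genes differed more between libraries of one genotype than between genotypes. Car6, a secreted carbonic anhydrase, stood at 0.225, 1.14 and 0.456 CPM in WT and at 0.599, 52.3 and 54.2 CPM in cKO, high in 2 of 3 cKO libraries (log2 fold change 5.81, adjusted p = 0.149). Tjp1, a tight junction protein, stood at 1.57, 25.2 and 25.0 CPM in WT and at 3.90, 2.59 and 2.73 CPM in cKO, low in WT replicate 1 and in all cKO libraries (-2.49, adjusted p = 0.290). Adprh, evenly low in WT peritoneal macrophages, stood at 49.0, 10.3 and 31.0 CPM in WT day 8 BMDMs and at 58.0 and 63.8 CPM in cKO. These genes were chosen after their values were seen.

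Some relatives of the genes that fell were also low in cKO without passing the test. Cd209f, a lectin related to Cd209a, stood at 15.7, 2.77 and 1.14 CPM in WT and at 0, 0.053 and 0 CPM in cKO (adjusted p = 0.0583). Cd209b stood at 30.6, 20.9 and 27.5 CPM against 1.41, 3.22 and 8.58 CPM (-2.70, adjusted p = 0.0769), and Chil3, a chitinase-like protein of alternative activation, at 59.0, 37.3 and 99.7 CPM against 7.75, 20.2 and 4.29 CPM (-2.58, adjusted p = 0.0964). In each the lowest WT library was above the highest cKO library.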
